A study of Mus musculus with 12 samples.

Results

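Lymphatic endothelial identity genes were examined in cultured mouse lung endothelial cells (MLECs) from mice with or without an inducible endothelial knockout of the transcription factors Sp1 and Sp3. The 10 genes were Prox1, Flt4, Reln, Lyve1, Pdpn, Ccl21a, Vegfc, Vegfd, Foxc2 and Itih5, listed by name with earlier results of these data known. Most are known genes of lymphatic endothelium, whereas Vegfc and Vegfd encode ligands that act on it. Of the 10 genes, 9 had a row among the 28689 genes of the expression table, and 8 had enough expression to be tested. Ccl21a and its near-identical copies were not matched to a row and were not analysed here.

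The dKO mice carried VE-CAD-CreERT2, a tamoxifen-inducible Cre driven by the VE-cadherin promoter, together with Sp1 fl/fl and Sp3 fl/fl alleles. The CTR mice were littermates with the same floxed alleles and no Cre, although the sample labels call them WT, and both groups received tamoxifen. VE-cadherin is made by blood and lymphatic endothelium alike, so recombination is not restricted to either. RNA was sequenced in 6 CTR and 6 dKO libraries from adult lung cells selected with CD31 beads and, at confluence, with beads against intercellular adhesion molecule 2, and used at passages 1 to 3. The number of mice behind a library is not given, so the p-values measure the spread between libraries, which may be partly technical.

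Lymphatic vessels drain fluid and immune cells from tissue. Their endothelium arises largely from venous endothelium, where Sox18 and Nr2f2 switch on Prox1, the homeobox factor that sets and maintains lymphatic identity. Prox1 and the receptor VEGFR3, encoded by Flt4, sustain each other, and the ligands VEGF-C and VEGF-D act through that receptor to drive lymphatic growth. Lyve1 is a hyaluronan receptor, Pdpn encodes podoplanin, Reln encodes a secreted glycoprotein of collecting vessels, and Foxc2 is the factor of lymphatic valves. Several of these genes are also used by other lung cells, such as Lyve1 by resident macrophages and Pdpn by fibroblasts, mesothelium and alveolar type I cells.

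The sequences shown here are the 250 bases upstream of the annotated start of the genes that rose in dKO libraries, since Sp1 and Sp3 bind GC boxes. They were read on the strand of each gene from GRCm39, with starts of the canonical GENCODE transcripts, and capitals mark the GC box GGGCGG or its complement CCGCCC. Prox1 is given from chr1:189903209-189903458 on the minus strand, Flt4 from chr11:49499840-49500089 on the plus strand, Reln from chr5:22549701-22549950 on the minus strand and Foxc2 from chr8:121842660-121842909 on the plus strand. The Prox1 window lies inside the annotated span of the gene, because another Prox1 transcript starts further upstream.
Prox1: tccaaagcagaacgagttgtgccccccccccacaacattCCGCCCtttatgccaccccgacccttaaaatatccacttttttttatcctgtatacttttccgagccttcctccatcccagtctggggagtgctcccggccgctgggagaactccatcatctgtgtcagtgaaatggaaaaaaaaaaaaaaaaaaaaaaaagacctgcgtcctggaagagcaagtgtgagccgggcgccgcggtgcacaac
Flt4: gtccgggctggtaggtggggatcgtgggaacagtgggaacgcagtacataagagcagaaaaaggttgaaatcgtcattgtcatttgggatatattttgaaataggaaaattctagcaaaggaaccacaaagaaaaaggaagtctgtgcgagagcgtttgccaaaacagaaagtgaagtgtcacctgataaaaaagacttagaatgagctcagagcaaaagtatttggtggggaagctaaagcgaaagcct
Reln: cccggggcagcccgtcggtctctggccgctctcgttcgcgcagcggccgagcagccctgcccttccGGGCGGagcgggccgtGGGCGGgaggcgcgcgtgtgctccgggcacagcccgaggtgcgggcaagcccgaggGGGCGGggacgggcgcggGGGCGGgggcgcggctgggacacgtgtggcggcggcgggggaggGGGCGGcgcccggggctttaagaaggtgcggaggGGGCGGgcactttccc
Foxc2: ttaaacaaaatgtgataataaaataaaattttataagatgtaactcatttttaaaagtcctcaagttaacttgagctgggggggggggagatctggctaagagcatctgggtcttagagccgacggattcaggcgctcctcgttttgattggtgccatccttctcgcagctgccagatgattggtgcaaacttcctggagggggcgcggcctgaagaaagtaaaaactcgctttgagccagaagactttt

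Reln held 6 GC boxes, whose first bases lie at positions −184, −168, −112, −94, −50 and −16 from the start, and 80.8% of its window was G or C. Prox1 held 1 box, at −211, and Flt4 and Foxc2 held 0. Of the 9 genes with a row, Itih5 was the only other one with a box, 1 in number at −51. Thus 3 of 9 windows held a box, against 43.2% of the 17367 promoters of the table's genes, of which 0.927% held 6 or more. The genes that rose therefore ranged from 0 to 6 boxes, and the absence of these letters in a window says nothing of binding elsewhere.

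Expression was measured as FPKM, which counts fragments by gene length and library size, with 15523054 to 17938286 fragments per library. The marker genes of endothelium were present, with Cdh5 at 88.9 ± 16.1 FPKM in CTR and 140.3 ± 17.1 in dKO libraries (SD, n = 6 each). So were those of other cells, with the collagen gene Col1a1 at 1173 ± 65.0 and 571.5 ± 128, and the macrophage lysozyme gene Lyz2 at 746.0 ± 160 and 1868 ± 580. Sp1 was lower in all 6 dKO libraries, at 21.2 ± 1.77 in CTR and 10.6 ± 1.53 FPKM in dKO (log2 fold change −0.95 ± 0.09 SE, limma adjusted p = 5.68e-06). Sp3 was at 27.7 ± 2.31 and 25.0 ± 1.64 FPKM, a difference that did not pass the test (limma adjusted p = 0.0902). The paper reports less Sp1 and Sp3 protein by immunofluorescence in the aortic endothelium of dKO mice, which RNA of these cultures does not measure. A supplementary legend of the paper also lists western blots of both proteins in isolated aortic endothelial cells, whose result its text does not state. Because the RNA is from mixed cultures, fewer cells of a type and less RNA per cell cannot be told apart.

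The comparison of dKO with CTR asks how lymphatic identity genes stood in cells of mice with the endothelial Sp1 and Sp3 knockout, in whose libraries Sp1 was lower and Sp3 was not called. The genes with a called change were the transcription factors, the receptor and Reln, whereas the surface markers and the ligands had none. In numbers, 4 of the 8 tested genes were higher in dKO (Prox1, Flt4, Reln and Foxc2), 0 were lower and 4 did not pass. At the same threshold, an adjusted p under 0.05, limma called 53.1% of all 12467 tested genes, 20.4% as higher and 32.6% as lower. The median log2 fold change was 0.32 over the 8 genes and −0.10 over all tested genes. The 4 higher genes and this median include Foxc2, which was tested only because it was high in dKO. Itih5, whose mean was lower in dKO, was left out of the 8 for low expression.

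**Figure D1:**
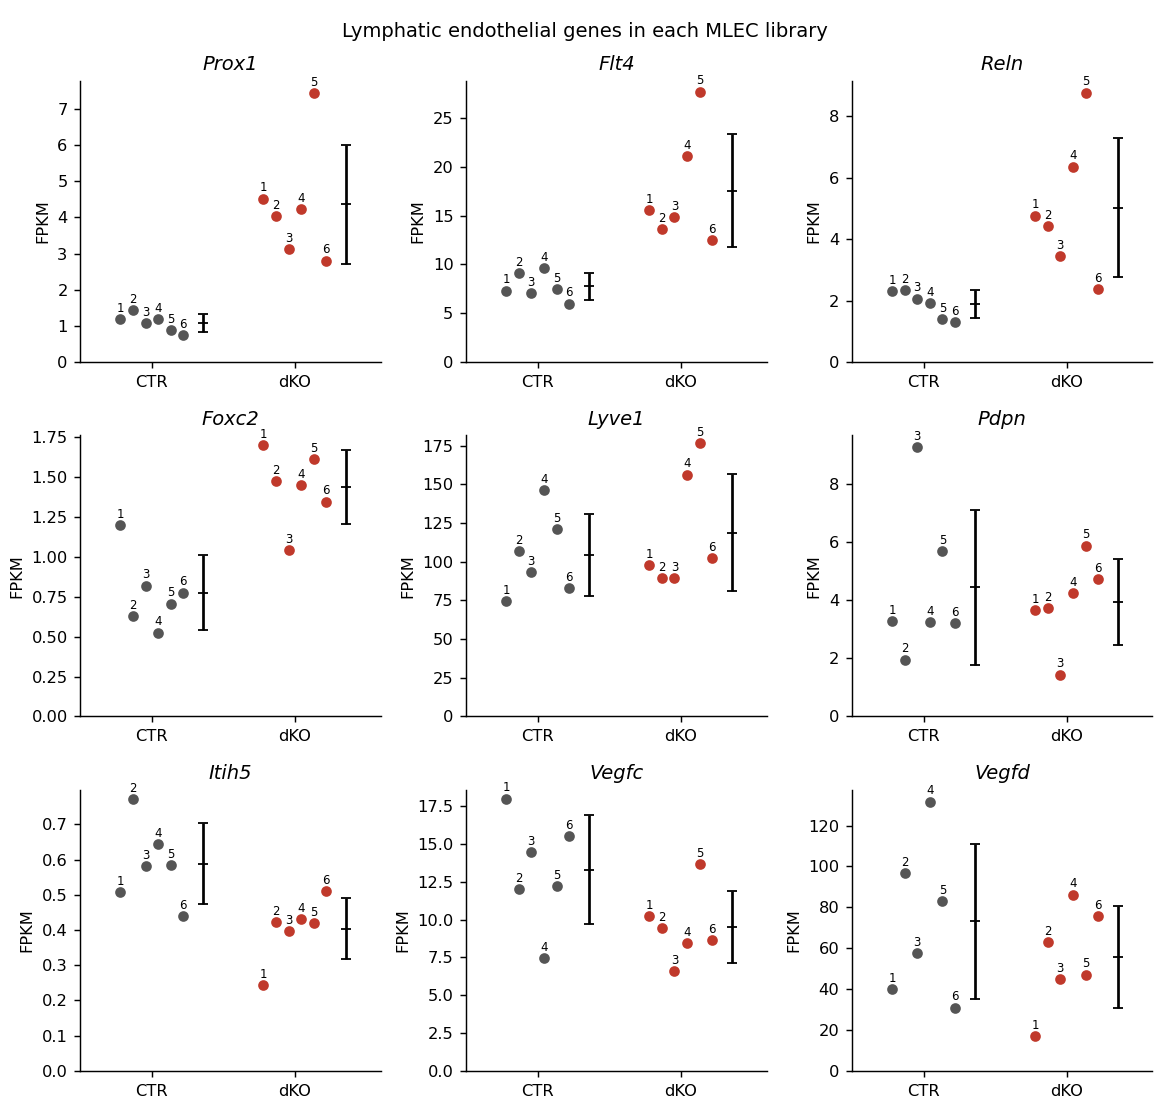
FPKM (linear axis from 0) of the 9 genes with a row in each of the 6 CTR (grey) and 6 dKO (red) libraries, with replicate numbers beside the points and the mean ± SD as a black bar. Prox1, Flt4 and Reln lie apart in the 2 groups, with the highest value of each in dKO replicate 5, while Lyve1, Pdpn, Vegfc and Vegfd overlap.

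Prox1 (ENSMUSG00000010175, chr1:189850232-189904637, minus strand) showed the largest change of the 8. It stood at 1.19, 1.43, 1.07, 1.19, 0.878 and 0.735 FPKM in CTR replicates 1 to 6 and at 4.52, 4.04, 3.11, 4.24, 7.44 and 2.81 FPKM in the dKO libraries. Every dKO library lay above every CTR library, as was also so for Flt4 and Reln. Groups did not overlap for 27.4% of all tested genes, and for 11.3% with dKO above. The mean rose from 1.08 ± 0.248 to 4.36 ± 1.65 FPKM (SD, n = 6 each), with a log2 fold change of 1.32 ± 0.16 (SE, on log2(FPKM + 1); limma adjusted p = 3.61e-05). That scale understates changes of low genes, and on fragments the log2 fold change was 1.97. The values rest on 105 to 203 fragments per CTR library and 391 to 1093 per dKO library. Antisense genes lie opposite 976 exon bases of Prox1 (Prox1os), 237 of Flt4, 554 and 564 of Reln (Gm10475 and Gm71486) and 300 of Vegfc, and whether counting used strand is not stated.

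Flt4 (ENSMUSG00000020357, chr11:49500090-49543582, plus strand), the receptor gene, followed Prox1. Its CTR libraries stood at 7.32, 9.09, 7.02, 9.66, 7.48 and 5.99 FPKM, and its dKO libraries at 15.5, 13.7, 14.9, 21.1, 27.7 and 12.5 FPKM. The groups did not overlap, with dKO replicates 4 and 5 well above the other 4. The mean rose from 7.76 ± 1.37 to 17.6 ± 5.79 FPKM (log2 fold change 1.05 ± 0.17 SE, limma adjusted p = 0.000284).

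Reln (ENSMUSG00000042453, chr5:22089452-22549700, minus strand) had CTR values of 2.31, 2.35, 2.06, 1.91, 1.39 and 1.30 FPKM and dKO values of 4.76, 4.43, 3.45, 6.36, 8.78 and 2.39 FPKM. The groups did not overlap, but dKO replicate 6 lay just above CTR replicate 2. The mean rose from 1.89 ± 0.449 to 5.03 ± 2.27 FPKM (log2 fold change 1.00 ± 0.21 SE, limma adjusted p = 0.00186).

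Foxc2 (ENSMUSG00000046714, chr8:121842910-121845634, plus strand), the valve factor, was low in both groups. The CTR libraries stood at 1.20, 0.630, 0.820, 0.525, 0.708 and 0.776 FPKM, and the dKO libraries at 1.70, 1.48, 1.04, 1.45, 1.61 and 1.35 FPKM. All but 1 of the 6 dKO libraries lay above all CTR libraries, and dKO replicate 3 fell below CTR replicate 1. The mean rose from 0.777 ± 0.233 to 1.44 ± 0.230 FPKM (log2 fold change 0.46 ± 0.10 SE, limma adjusted p = 0.00174). Foxc2 met the expression limit, 1 FPKM in at least 6 libraries, in 1 CTR library and 6 dKO libraries, so it was tested only because it was high in dKO. It rests on 25 to 57 fragments per CTR library and 50 to 77 per dKO library.

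The surface markers gave no called change. Lyve1 (ENSMUSG00000030787, chr7:110448585-110462460, minus strand) was the most abundant of the 9 genes, at 74.5, 106.7, 93.4, 146.2, 121.1 and 82.7 FPKM in CTR and 98.0, 89.3, 89.4, 156.3, 176.4 and 102.3 FPKM in dKO. The ranges overlapped over most of their length, with replicates 4 and 5 high in both groups. The means were 104.1 ± 26.5 and 118.6 ± 37.9 FPKM (log2 fold change 0.17 ± 0.20 SE, 95% interval −0.27 to 0.61, limma adjusted p = 0.502).

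Pdpn (ENSMUSG00000028583, chr4:142990871-143026143, minus strand) varied widely, at 3.29, 1.95, 9.28, 3.25, 5.69 and 3.20 FPKM in CTR and 3.65, 3.74, 1.44, 4.23, 5.88 and 4.74 FPKM in dKO. Replicate 3 was the highest CTR library and the lowest dKO library. The log2 fold change was −0.08 ± 0.29 SE (95% interval −0.72 to 0.55, limma adjusted p = 0.833), and without CTR replicate 3, CTR replicate 5 or dKO replicate 3 it was above 0.

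The VEGFR3 ligands had lower means in dKO libraries without passing the test. Vegfc (ENSMUSG00000031520, chr8:54530257-54640131, plus strand) stood at 18.0, 12.03, 14.5, 7.48, 12.2 and 15.5 FPKM in CTR and 10.2, 9.46, 6.58, 8.47, 13.7 and 8.62 FPKM in dKO. All but 1 of the 6 CTR libraries exceeded all dKO libraries other than replicate 5 (12.03 FPKM or more against 10.2 or less), and CTR replicate 4 fell among the dKO values. The means were 13.3 ± 3.60 and 9.51 ± 2.38 FPKM, with a log2 fold change of −0.43 ± 0.19 SE (95% interval −0.83 to −0.02, limma adjusted p = 0.0695). Without CTR replicate 4 it was −0.57 (adjusted p = 0.00741), and without dKO replicate 5 it was −0.53 (adjusted p = 0.0281), so each of these libraries decides the call.

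Vegfd (ENSMUSG00000031380, chrX:163156240-163185646, plus strand) ranged over 39.9, 96.7, 57.4, 131.7, 82.9 and 30.9 FPKM in CTR and 17.1, 63.1, 44.7, 86.3, 47.1 and 75.9 FPKM in dKO. The spread within each group was larger than the difference between the means, 73.3 ± 38.0 and 55.7 ± 24.8 FPKM (log2 fold change −0.38 ± 0.41 SE, 95% interval −1.26 to 0.50, limma adjusted p = 0.447).

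Itih5 (ENSMUSG00000025780, chr2:10158281-10261340, plus strand), which encodes a heavy chain of a hyaluronan-binding inhibitor family, was below 1 FPKM in all 12 libraries. The CTR values were 0.508, 0.771, 0.581, 0.645, 0.584 and 0.439 FPKM, and the dKO values were 0.245, 0.423, 0.396, 0.430, 0.419 and 0.510 FPKM. All but dKO replicate 6 lay below all CTR libraries. The means were 0.588 ± 0.115 and 0.404 ± 0.0873 FPKM, and the difference of −0.18 on the log2(FPKM + 1) scale gave a two-sided exact permutation p of 0.00649, where 0.00216 is the smallest that splits of 6 and 6 libraries allow. Tested with all 28689 genes, of which 26.3% were called, its limma adjusted p was 0.0505. It rests on 30 to 103 fragments per library.

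FPKM is per length, so levels can be ordered across genes. By median FPKM in CTR the order was Lyve1, Vegfd, Vegfc, Flt4, Pdpn, Reln, Prox1, Foxc2 and Itih5, and each neighbouring pair overlapped in range except Vegfd and Vegfc. In dKO the order was Lyve1, Vegfd, Flt4, Vegfc, Reln, Prox1, Pdpn, Foxc2 and Itih5, with Lyve1 clear of Vegfd and Foxc2 clear of Itih5. Flt4, Reln and Prox1 each stood 1 place higher and Pdpn came behind Reln and Prox1, while Lyve1 stood at a median of 100.1 FPKM in both groups.

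Markers of other cells differed between the groups beside these genes. Their counts stand beside the 20.4% of all tested genes called higher and the 32.6% called lower. Of 14 markers found in blood endothelium, most of them shared with lymphatic endothelium, 12 were higher in dKO and 0 lower (median log2 fold change 0.56), including Icam2 (1.25), Erg (1.03), Emcn (0.98) and Pecam1 (0.84). Their summed level was 251.6 to 383.9 FPKM in CTR and 411.2 to 580.8 in dKO libraries. Of 10 tested macrophage markers, 9 were higher and 1, Marco, was lower (log2 fold change −1.91), with a summed level of 819.3 to 1366 and 2340 to 5344 FPKM. The complement genes C1qa (3.66), C1qc (3.63) and C1qb (3.35) and the lysosomal gene Cd68 (1.96) had the largest rises. Of 8 mesothelial markers, 7 were higher, led by Upk1b (2.48), Lrrn4 (1.82), Msln (1.29) and Upk3b (1.26), with the keratin Krt8 the most abundant, at a summed level of 62.8 to 93.1 and 126.6 to 367.5 FPKM. Of 8 tested fibroblast markers, 3 were lower, namely Col3a1 (−1.12), Col1a1 (−1.07) and Col1a2 (−0.77), and 1 was higher, Dcn (1.33), with sums of 2154 to 2847 and 854.9 to 1929 FPKM.

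Of 7 tested smooth muscle and pericyte markers, 2 were higher, Rgs5 (1.17) and Myh11 (0.57). Rgs5 reached 1 FPKM in 1 CTR and 5 dKO libraries, so it was tested only because it was high in dKO. Acta2 was the most abundant at 773.1 ± 322 and 518.4 ± 150 FPKM. Their sums were 550.1 to 1501 FPKM in CTR and 497.3 to 897.6 in dKO libraries. Of 8 tested alveolar epithelial markers, 1 was higher, Epcam (0.34), with sums of 93.5 to 509.1 and 157.7 to 372.1 FPKM. Of 3 tested markers of other leukocytes, 2 were higher, S100a8 (1.14) and Ptprc (0.67), with sums of 2.93 to 9.55 and 9.59 to 13.3 FPKM, while the T cell gene Cd3e had 1 fragment in all and the cytotoxic cell gene Nkg7 had 3. No list had a member with a row at 0 in all libraries. The part of these cells in the changes of the lymphatic genes was not tested.

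Because 12 of 14 endothelial markers were higher, the lymphatic genes were also expressed relative to them, an alternative chosen after seeing the data. Each FPKM was divided by the geometric mean of the 14 markers in its library, which was 9.59 to 14.2 FPKM in CTR and 15 to 20.7 in dKO. This lowered the median log2 fold change of all tested genes from −0.10 to −0.65, and 4.40% of 12533 genes were then called higher and 77.1% lower. Prox1 (log2 fold change 0.88 ± 0.15 SE, limma adjusted p = 9.03e-05), Reln (0.50 ± 0.19 SE, 0.0232) and Flt4 (0.44 ± 0.14 SE, 0.00922) were still higher. Foxc2 was at 0.11 ± 0.13 SE and did not pass (limma adjusted p = 0.441).

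Relative to endothelial markers the remaining members lay below 0. Lyve1 turned from 0.17 to −0.49 ± 0.14 SE (limma adjusted p = 0.00422), and Vegfc (−1.04, 0.000828), Vegfd (−1.03, 0.00786) and Pdpn (−0.61, 0.0497) passed the threshold as lower. Set against the median of −0.65, Lyve1 and Pdpn were thus close to or above the typical gene, and both ligands were below it. As a percent of the endothelial mean, Prox1 was 9.62 ± 2.14 in CTR and 24.2 ± 7.38 in dKO, with all 6 dKO libraries above all CTR libraries. The groups overlapped for Flt4 and Reln, with 5 and 4 of the 6 dKO libraries above all CTR libraries. For Lyve1 the percentages were 909.8 ± 108 and 652.0 ± 126, with all but 1 of the dKO libraries below all CTR libraries.

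**Figure D2:**
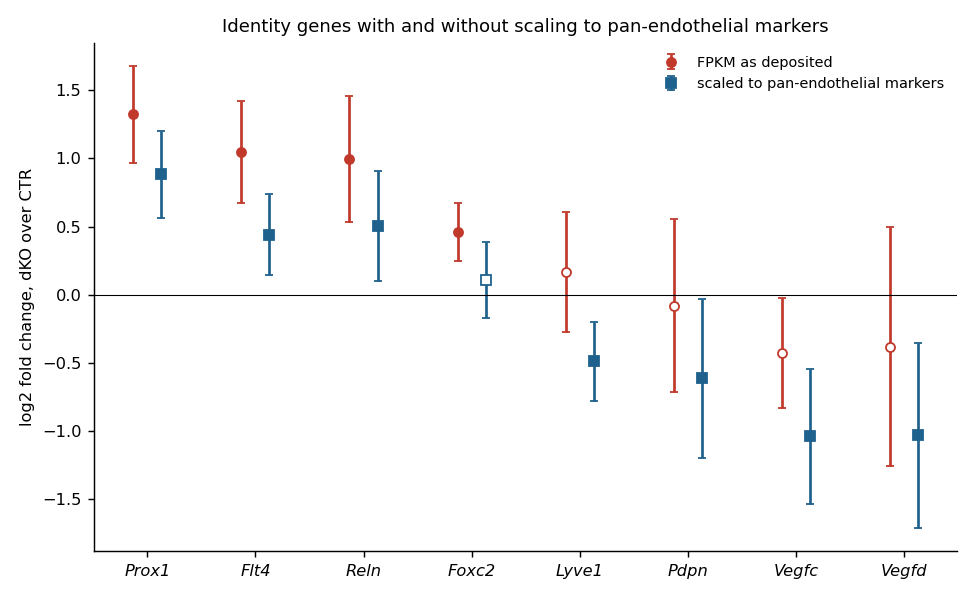
Log2 fold change of dKO over CTR (points) with 95% confidence intervals for the 8 tested genes, from FPKM as deposited (red circles) and after division by the geometric mean of 14 endothelial markers (blue squares). Filled symbols have a limma adjusted p under 0.05, and Prox1, Flt4 and Reln are filled and above 0 on both scales while Lyve1 changes side.

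The wider lymphatic programme was described by lists of related genes, some of which, such as Kdr, also serve blood endothelium. Of 56 listed genes, 54 had a row and 48 were tested, of which 25 were higher in dKO, 7 lower and 16 not called (median log2 fold change 0.39). Over all tested genes, 20.4% were called higher and 32.6% lower. Relative to the endothelial markers, 9 were higher and 18 lower, where 4.40% of all genes were called higher and 77.1% lower. From FPKM as deposited, 12 of the 14 endothelial markers were higher and 0 lower, with a median log2 fold change of 0.56. The rise was thus not particular to the lymphatic lists. Values in parentheses in the list descriptions are log2 fold changes from FPKM as deposited.

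Of 8 tested factors of lymphatic fate, 5 were higher and 1 lower. Among those that rose were Sox18 (1.34), Tbx1 (1.31), Nfatc1 (0.50) and Hhex (0.49). Sox18, an activator of Prox1, was the most abundant gene of the list and rose from 13.9 ± 2.17 to 36.6 ± 4.12 FPKM (limma adjusted p = 1.43e-06), without overlap. Tbx1, a T-box factor that regulates Flt4, rose from 1.16 ± 0.294 to 4.55 ± 1.91 FPKM (limma adjusted p = 0.000116), with its highest values in dKO replicates 4 and 5. Nr2f2, the venous partner of Sox18, fell from 21.5 ± 1.5 to 17.1 ± 2.56 FPKM (−0.32, limma adjusted p = 0.0113). Relative to endothelial markers Sox18 (0.71) and Tbx1 (0.85) were still called higher and Nr2f2 lower (−0.95), while Nfatc1 (−0.02) and Hhex (0.10) were not called. Foxc1 was below the expression limit, and Etv2 had 1 fragment in all.

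Genes that process VEGF-C or receive it moved in both directions, with 2 of 11 higher, 5 lower and a median of −0.14. VEGF-C is secreted as a precursor that Adamts3 cleaves with the help of Ccbe1, after cleavage by Furin and related convertases. Ccbe1 fell from 31.0 ± 2.89 to 17.6 ± 1.78 FPKM without overlap (−0.78, limma adjusted p = 7.84e-06). Adamts3 (−1.18), the convertase gene Pcsk5 (−1.09) and Adamts14 (−1.01) were lower too, as was Vegfa (−0.77), the ligand of the main blood endothelial receptor. That receptor gene, Kdr, rose from 4.85 ± 0.829 to 9.41 ± 2.09 FPKM (0.82, limma adjusted p = 0.000249) and Furin from 22.03 ± 1.70 to 32.1 ± 2.09 FPKM (0.52, limma adjusted p = 3.62e-05). Adamts2, the most abundant of the list, was at 44.4 ± 6.74 and 43.7 ± 13.5 FPKM and did not pass the test. Relative to endothelial markers Kdr (0.25) and Furin (−0.11) were not called.

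Of 9 tested further lymphatic markers, 6 were higher and 1 lower. Nts, which encodes neurotensin, rose from 0.467 ± 0.239 to 5.14 ± 2.54 FPKM (1.95, limma adjusted p = 0.000104), having passed the expression limit through the dKO libraries alone. Stab1 (1.79), a scavenger receptor gene and the most abundant of the list, and Fgl2 (1.63) are both also expressed by macrophages. Ackr2 (0.57), a chemokine scavenger of lymphatic vessels, Pard6g and Fxyd6 were the other members called higher. Relative to endothelial markers Nts (1.595), Stab1 (1.16) and Fgl2 (1.00) were still called higher, Ackr2 (0.08) was not called, and Pard6g (−0.29) and Fxyd6 (−0.28) were called lower. Stab2 was below the limit, but all 6 dKO libraries (0.831 to 2.13 FPKM) lay above all CTR libraries (0.0537 to 0.288 FPKM).

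Mmrn1, which encodes multimerin 1 and marks lymphatic endothelium, went the other way. It stood at 15.5, 19.3, 14.2, 18.3, 11.8 and 8.46 FPKM in the CTR libraries, 8783 fragments in sum, and at 0 in all 6 dKO libraries. Against a floor of 3 fragments over the dKO libraries it was at least 2937-fold lower.

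From FPKM as deposited, valve and junction genes and growth signals of lymphatic vessels were called in the upward direction or not at all. Of 10 tested valve and junction genes, 5 were higher, among them the ephrin ligand gene Efnb2 (1.03), the valve integrin Itga9 (0.73), the connexin gene Gja4 (0.65) and the ephrin receptor gene Ephb4 (0.57). Celsr1, a planar polarity gene of valves, was below the limit, with 0.467 to 0.692 FPKM in CTR and 0.760 to 2.39 FPKM in dKO libraries. Fn1, by far the most abundant gene of this list, was at 663.9 ± 183 and 658.4 ± 130 FPKM and did not pass. Of 10 growth signalling genes, 7 were higher, among them Tie1 (1.26), Adm (1.04), Eng (0.91) and Acvrl1 (0.64). Adm, which encodes adrenomedullin and was the most abundant of them, rose from 68.8 ± 11.5 to 143.7 ± 33.3 FPKM (limma adjusted p = 8.18e-05). Relative to endothelial markers, Efnb2 (0.43), Tie1 (0.62) and Adm (0.38) were the members of these 2 lists still called higher. On that scale Gja1 (−0.82), Fn1 (−0.65), Emilin1 (−0.63) and S1pr1 (−0.48) were called lower.

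**Figure D3:**
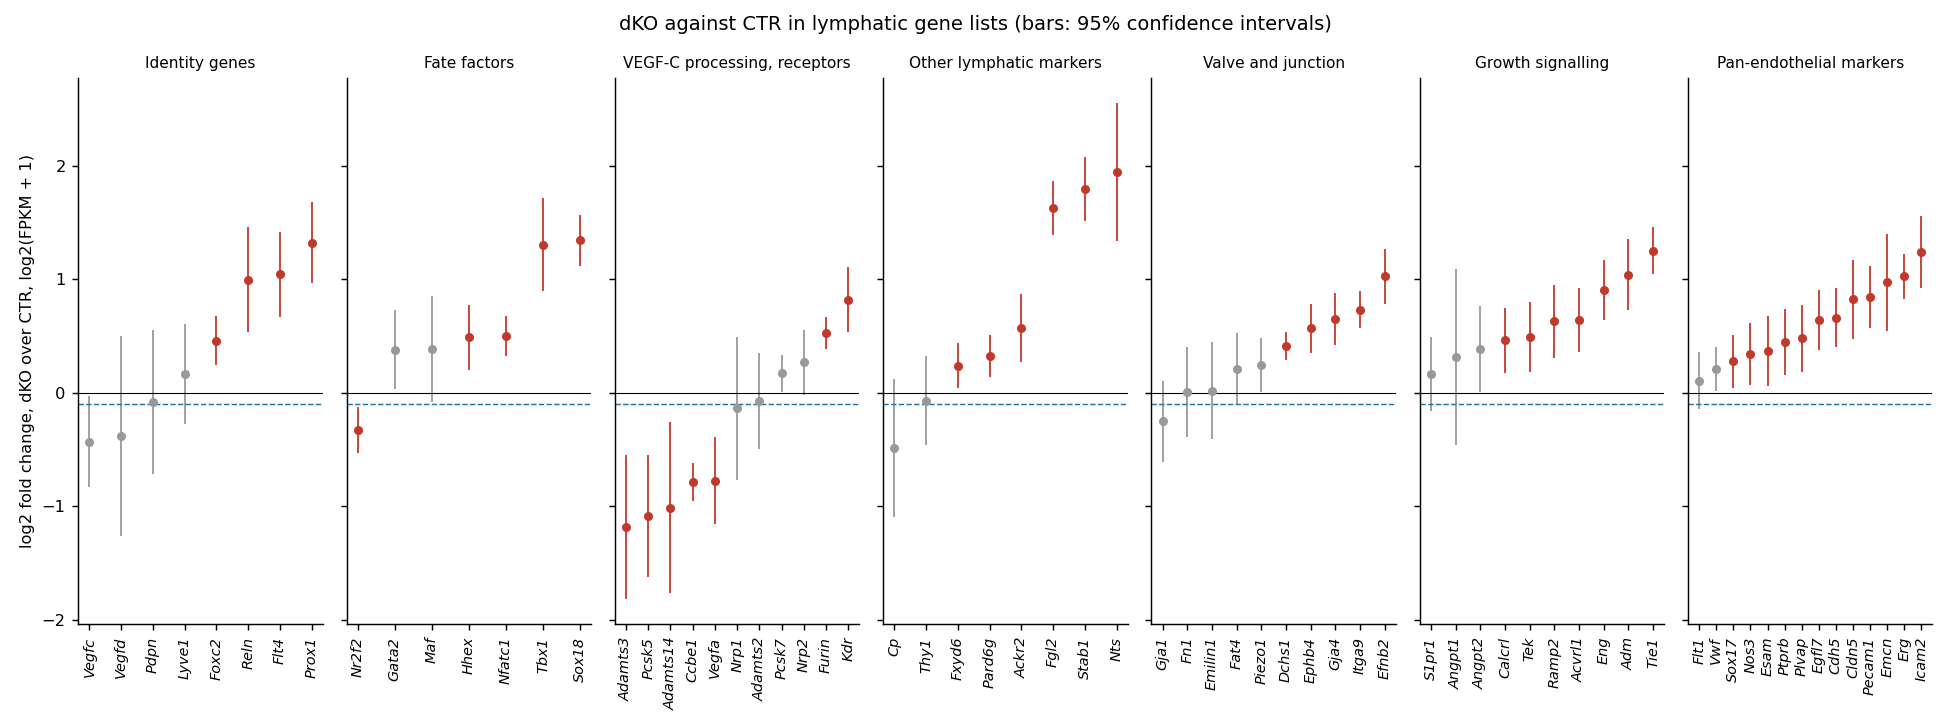
Log2 fold change of dKO over CTR on log2(FPKM + 1) with 95% confidence intervals for tested genes of the identity, pathway and endothelial marker lists, without Mmrn1, which was at 0 in dKO, and without genes not reported here. Red points have a limma adjusted p under 0.05, grey points do not, and the dashed line marks the median of all tested genes, −0.10. The rises of Nts, Stab1, Fgl2, Sox18 and Prox1 are among the largest and the VEGF-C processing genes hold most of the falls.

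The genes also varied together among libraries of the same group. After subtraction of the group means, the correlation of log2(FPKM + 1) over the 12 libraries was 0.93 between Prox1 and Reln and 0.85 between Flt4 and each of Prox1, Reln and Lyve1. These values share the libraries and their cell makeup and are given as a description. Vegfc and Foxc2 gave 0.86, whereas Vegfc and Vegfd gave −0.59. Prox1 and Vegfd were close to 0, at −0.01.

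The tested genes most like each member by this measure were Reln (0.93), Scn3a and Adamts7 (0.92 each) for Prox1, and Sh3tc1, Rnf125 and the VEGF receptor gene Flt1 (0.93 each) for Flt4. For Reln they were Pi15 (0.95), Prox1 (0.93) and Klhl4 (0.92). For Lyve1 they were S1pr1 (0.97), a sphingosine phosphate receptor gene, Prkch (0.96) and Podxl (0.95). For Foxc2 they were Rem1 (0.94), Hmgb3 and Xxylt1 (0.91 each), and for Vegfc they were Il1rap, Cep76 and Unc5b (0.94 each). Vegfd was most like Mgp, Plscr4 and Ism1 (0.98 each), and Mgp averaged 1663 FPKM over the 12 libraries. Pdpn had the weakest matches, Gm19590 (0.83), Dohh (0.80) and Bivm (0.78).

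**Figure D4:**
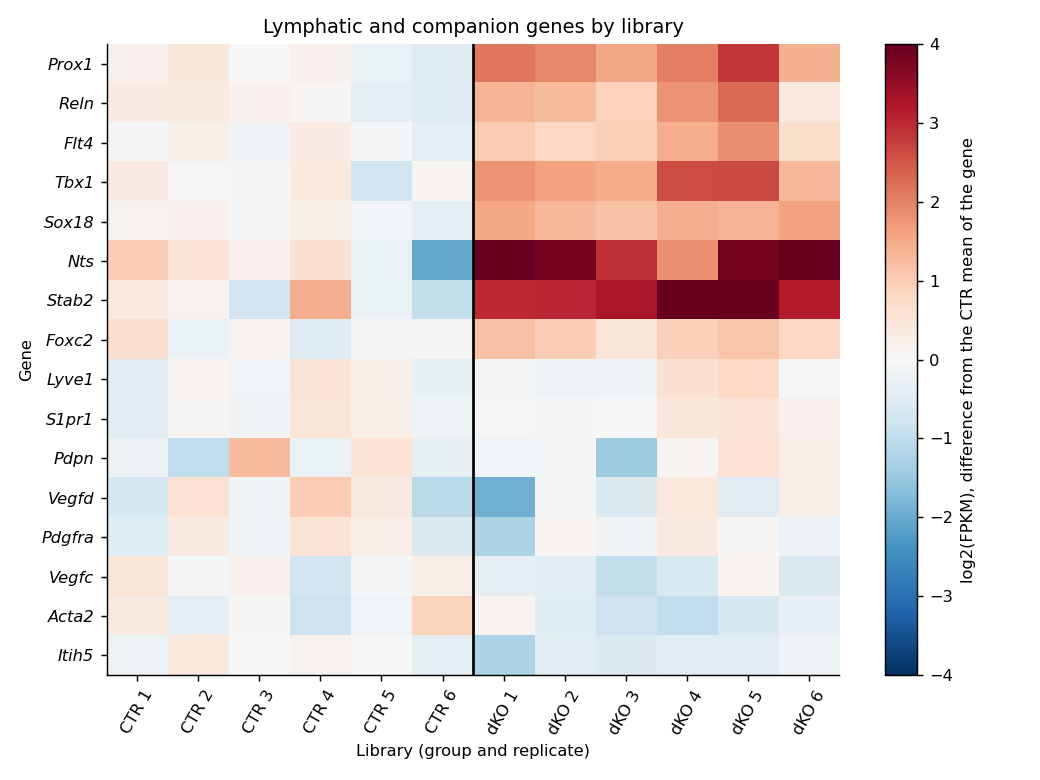
Colour gives log2(FPKM) minus the mean of the 6 CTR libraries for each gene (rows) in each library (columns, CTR left of the line and dKO right), on a scale cut at −4 and 4. Prox1, Reln, Flt4, Tbx1, Sox18, Nts and Stab2 are red across the dKO libraries, while Lyve1, S1pr1, Pdpn and Vegfd show no uniform colour in either group.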

How the data were processed

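MLEC libraries were grouped by their labels into 6 CTR and 6 dKO samples, and the columns of the dKO samples, named after tamoxifen, were matched through replicate numbers. The authors used Trimmomatic for trimming and STAR for alignment to the mm39 genome, and kept unique alignments with sambamba. The submitters' processing notes name Bowtie2 2.2.3, HISAT2 2.1.0, TopHat2 and DESeq2. The extract protocol in the labels names another tissue than lung. FPKM values were deposited by the authors. The counting program, annotation and strand setting are not given in the sources used here.

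A gene was tested (12467 in all) when 6 or more of the 12 libraries reached 1 FPKM. The test was made on log2(FPKM + 1) with limma 3.58.1 in R 4.3.3 (lmFit, eBayes with trend), with Benjamini-Hochberg adjustment over all of them and calls at an adjusted p under 0.05. Itih5, below this limit, had an exact permutation test. Fragments were recovered from the FPKM by a search for gene lengths that bring every value within 0.01 of a whole number. That fit is set by the search and is no check of it. The fragments summed to within 0.0130% of the library totals, and 2735 of 28689 recovered lengths equalled the annotated exon length. Gene symbols and positions came from GENCODE vM39, which matched 27706 of 28689 genes. On simulated data, 184 of 200 genes changed by a log2 fold change of 1 were called with the right sign and 8 of 12347 unchanged genes were called. The simulated libraries were independent, with the same dispersion for all genes. The changed genes were picked at levels above the CTR means of Prox1, Reln and Foxc2. In the data 53.1% of tested genes were called, so the simulated rates are not error rates of these calls.

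The members and lists were chosen with earlier results of these data known. Named genes are the members, Sp1, Sp3, Mmrn1, up to 4 called genes per direction and the most abundant gene of each list, and the 3 genes most correlated with each member. Some genes that the rule names are not reported here. Others were chosen after their values were seen. Alternatives were the pseudocount 0.1, no filter or a filter on the mean, median-of-ratios scaling, TPM, limma-voom on fragments, the replicate block, leaving out each library, and scaling to endothelial markers.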

Additional observations from a re-analysis of the deposited data

Results flagged for a closer look

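Prox1 in dKO replicate 5 stood apart from the other dKO libraries, at 7.44 FPKM against 2.81 to 4.52 FPKM in the other 5. The gap to its nearest neighbour exceeded the 95% critical value of Dixon's test, which flags about 1 group in 20 by chance, and it was the 1 such value among 18 groups of 6 libraries checked. Flt4, Reln and Lyve1 were also highest in that library, at 27.7, 8.78 and 176.4 FPKM.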

How the results depend on the processing

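The higher calls of Prox1, Flt4 and Reln held under each alternative run, with log2 fold changes of 0.88 to 1.97, 0.44 to 1.14 and 0.50 to 1.33. Scaling to endothelial markers changed most: the higher members fell to 3, with Foxc2 at 0.11, the lower members rose to 4 (Lyve1 reversed to −0.49), and the pathway genes came to 9 higher and 18 lower. On that scale 4.40% of all genes were called higher and 77.1% lower. Leaving out 1 library gave 4 higher members each time, 0 to 1 lower (Vegfc), and 23 to 29 higher and 5 to 8 lower pathway genes. Pdpn ranged from −0.23 to 0.13 and reversed to 0.13 without CTR replicate 3, 0.0041 without CTR replicate 5 and 0.11 without dKO replicate 3. After rescaling to TPM 1 member, Itih5, was lower (−0.37, limma adjusted p = 0.0333), and without a filter Itih5 gave −0.18 (0.0505), or −0.45 (0.102) with a pseudocount of 0.1. The cause was not tested. Correlations of the deviations of same-numbered libraries were 0.44, 0.16, −0.04, 0.57, 0.01 and −0.11 for numbers 1 to 6, not all above 0.1, so the numbers were not taken as pairs. With the replicate block, 6955 genes were called against 6614, with 4 higher and 0 lower members and 26 higher and 7 lower pathway genes, and not every library correlated best with its own number. Depth limits Foxc2 and Itih5 most.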
